A study of Mus musculus with 7 samples.

Results

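*Zscan10*, *Fzd10*, *Zfp568*, *Tcea3* and *Zfp819* each lie next to a putative Reprogramming-Inducible Enhancer (RIE) that overlapped a called ATAC-seq peak in embryonic stem cells (ESCs) and in no other library. RIEs are sites close to a gene start, which the study selected as bound early and densely by the reprogramming factors Oct4, Sox2, Klf4 and Myc next to a gene up-regulated during reprogramming. Of the 66 listed sites, 7 had this pattern, and the 5 genes described here are those of 5 of the 7 sites. The members were selected by these same peak calls, so their pattern at the site is a description and not a test. The question was whether the rest of each locus, the gene body with 20 kb on each side, opened at an earlier time.

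In ATAC-seq, Tn5 transposase cuts nuclear DNA where chromatin is open. All 6 MEF-derived libraries came from mouse embryonic fibroblasts (MEFs) of a cross between 2 alleles. The first, on B6;129S4, is the Hoch allele of Col1a1 with tetO-Pou5f1,-Klf4,-Sox2,-Myc, from which doxycycline induces the factors. The second, on B6.Cg, is the Jae allele of Gt(ROSA)26Sor with rtTA*M2, the doxycycline-dependent activator. They were collected untreated (day 0) and after 1, 2, 3, 6 and 9 days of doxycycline at 2 µg/mL. The last of the 7 libraries is from untreated ESCs of the single line Bruce-4, grown with serum and LIF, for which the labels enter the MEF genotype. Each time-point has 1 library, so there was no replicate error to set a difference against, and no test between libraries was made. Induced cultures hold cells at different stages, and a missing peak in them cannot be told apart from opening in few cells.

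The peak lists held between 27074 peaks, in ESCs, and 61241 peaks, on day 0, so ESCs were the library in which a peak was least often called. The study downsampled all libraries to the same depth before calling, but the value of that depth is unknown. A site without a peak was not detected as open rather than shown to be closed. The labels were examined at gene starts, where a start counted as open with a peak within 1000 bp. Of 8 MEF markers 5 were open at the start on day 0 and 2 in ESCs, while of 8 ESC markers 3 were open on day 0 and 1, *Zfp42*, in ESCs. The starts of *Pou5f1* and *Nanog* had no called peak in ESCs, so the ESC markers did not bear out the ESC label. Fewer MEF markers were open in ESCs than on day 0, but ESCs also had the fewest peaks in all. The shares of all protein-coding starts open on day 0 or in ESCs were not counted, so the marker counts have no background. With any transcript start in place of the gene start, 6 of the 8 MEF markers were open on day 0 and 3 in ESCs, and 4 of the 8 ESC markers on day 0 and 3 in ESCs. The ESC markers *Pou5f1* and *Sox2* are also on the transgene of the MEF-derived cells. Whether its reads entered their calls was not tested.

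Chromatin that is packed in nucleosomes hides most binding sites, and an enhancer or promoter in use is usually freed of nucleosomes over a short stretch. *Zscan10* encodes a SCAN and zinc-finger transcription factor of pluripotent cells. *Zfp568* and *Zfp819* encode KRAB zinc-finger proteins, a large family of repressors that work through Trim28 and whose genes stand in clusters. *Fzd10* encodes a Frizzled receptor for Wnt ligands, and *Tcea3* a tissue-restricted form of TFIIS, which helps stalled RNA polymerase II resume elongation.

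The sequences below are the parts of the ESC peaks that lie within the sites, since these are the stretches detected as open in ESCs alone. They are given for the plus strand of mm10 (GRCm38), which is also the strand of all 5 genes, without annotated UTR bases and with at most 300 bases of each. Capitals mark matches to the searched strings, GGGNGTGG (KLF) in *Zscan10*, *Fzd10* and *Tcea3* and the octamer ATGCAAAT in *Tcea3*, here all read on the opposite strand. No searched string matched the stretches of *Zfp568* and *Zfp819*.
Zscan10, chr17:23601367-23601604, 238 bases: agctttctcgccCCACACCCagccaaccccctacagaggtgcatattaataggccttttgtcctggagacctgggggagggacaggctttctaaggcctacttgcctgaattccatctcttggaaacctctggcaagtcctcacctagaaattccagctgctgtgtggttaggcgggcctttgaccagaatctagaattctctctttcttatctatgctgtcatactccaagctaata
Fzd10, chr5:128600553-128600843, 291 bases: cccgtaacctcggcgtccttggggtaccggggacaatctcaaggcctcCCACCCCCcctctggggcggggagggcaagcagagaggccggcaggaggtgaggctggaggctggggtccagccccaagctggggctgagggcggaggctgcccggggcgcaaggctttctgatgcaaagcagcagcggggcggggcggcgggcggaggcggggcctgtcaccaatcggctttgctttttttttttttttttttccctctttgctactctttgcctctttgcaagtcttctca
Zfp568, chr7:29982853-29982983, 131 bases: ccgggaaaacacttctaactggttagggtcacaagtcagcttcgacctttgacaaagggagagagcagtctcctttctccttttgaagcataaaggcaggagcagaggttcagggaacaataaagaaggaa
Tcea3, chr4:136246504-136246803, 300 bases: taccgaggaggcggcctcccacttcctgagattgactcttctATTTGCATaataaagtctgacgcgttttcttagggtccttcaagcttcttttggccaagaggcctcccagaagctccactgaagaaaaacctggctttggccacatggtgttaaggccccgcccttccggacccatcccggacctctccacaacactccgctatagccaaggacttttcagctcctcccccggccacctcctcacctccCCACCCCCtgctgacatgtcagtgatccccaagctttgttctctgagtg
Zfp819, chr7:43607937-43608074, 138 bases: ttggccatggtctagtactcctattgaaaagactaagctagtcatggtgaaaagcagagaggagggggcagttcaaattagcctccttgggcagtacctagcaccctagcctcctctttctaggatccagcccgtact

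The 5 ESC peaks were small to medium in size. Their widths were 222 bp at *Zfp819*, 236 bp at *Zfp568*, 238 bp at *Zscan10*, 350 bp at *Fzd10* and 507 bp at *Tcea3*, against a median of 385 bp over all ESC peaks. The *Tcea3* peak was wider than 66.5% of ESC peaks, and the *Zfp819* peak wider than 20.1%. The *Tcea3* and *Zscan10* peaks lay within the site in full, covering 79.1% and 24.5% of it. The *Fzd10* peak covered 51.8% of its site, the *Zfp568* peak 37.3% and the *Zfp819* peak 16.9%. The smallest overlap among the members was 131 bp, at *Zfp568*. On the other side of the rule, the *Celsr1* site also had an ESC peak and was left out by a day 9 peak that overlapped it by 185 bp.

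The nearest peak in the 6 MEF-derived libraries lay at very different distances from the 5 sites. At *Zfp568* it was between 282 and 337 bp away and at *Zfp819* between 495 and 602 bp, in each library at the gene's own start. At *Zscan10* it was between 1049 and 1144 bp away, at the start of the neighbouring gene *Zfp13*. The other 2 sites had no such fixed neighbour. At *Tcea3* the distance ran from 800 bp on day 0 to 13502 bp on day 2. At *Fzd10* it ran from 20561 bp on day 9 to 407500 bp on day 2. Sites of similar call pattern thus ranged from the edge of an open promoter to a stretch without any called peak nearby.

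**Figure D1:**
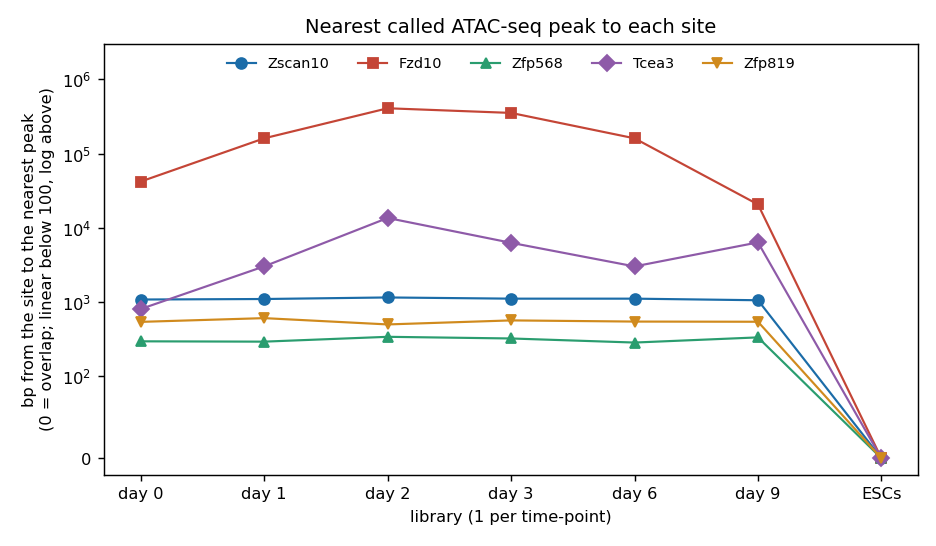
Distance in bp from each of the 5 sites to the nearest called peak, by library, on an axis that is linear below 100 and logarithmic above; 1 point is 1 library. All sites are at 0 in ESCs, while *Zfp568* and *Zfp819* stay within 602 bp of a peak in the other 6 libraries and *Fzd10* is never closer than 20561 bp.

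Outside the site, 4 of the 5 loci already had a peak on day 0, against 80.4% of the 21938 protein-coding genes. The same 4 loci had a peak in each other library, where the share of protein-coding genes was 77.2%, 73.6%, 78.4%, 77.8% and 74.2% on days 1, 2, 3, 6 and 9 and 73.0% in ESCs. For a peak on 1 or more of days 1 to 9 it was 82.1%. The exception at each time was *Fzd10*. The share of members was therefore close to that of protein-coding genes at large, although for the latter no site was left out.

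*Fzd10* (ENSMUSG00000081683.5, chr5:128600844-128604093, 3250 bp) had 0 peaks in its locus of 43250 bp in each of the 6 MEF-derived libraries. A locus without any peak in these libraries was found for 15.9% of protein-coding genes and for 1 of the 60 other RIE genes. The ESC peak at chr5:128600553-128600902 ran from -291 to 58 bp relative to the gene start and was the only peak of the locus. It covers the first bases of *Fzd10*, in the UTR, and an exon of 5930412G12Rik, a lincRNA gene on the opposite strand that starts close by. Openness of the 2 starts cannot be told apart here.

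The other Frizzled receptors looked different at their starts. *Fzd1* to *Fzd8* were open at the start in all 7 libraries, a state found for 38.5% of protein-coding genes. *Fzd9* was open on day 0 and on days 1 to 9 but not in ESCs. *Fzd10* was the 1 receptor of 10 whose start was open in ESCs alone, a state found for 1.39% of protein-coding genes. The ESC call there is the peak that selected the gene, and the site, from -607 to 47 bp, takes up part of the window about the start, so the pattern was fixed in part by the selection.

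*Zfp568* (ENSMUSG00000074221.12, chr7:29983955-30028282) had an open start throughout, from day 0 on. Here and below, a series of 7 values follows the order of day 0, days 1, 2, 3, 6, 9 and ESCs. The peak at the start covered 709, 712, 634, 647, 694, 721 and 562 bp. It was narrowest in ESCs, the library in which the site upstream was called. The ESC peak of the site, at chr7:29982748-29982983, ran from -1207 to -972 bp relative to the start, where no gene is annotated.

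Outside the site the *Zfp568* locus held 2, 3, 2, 2, 1, 2 and 3 peaks, and those away from the start were narrow and differed between libraries. In an intron, 23194 to 23421 bp past the start, a region of 228 bp had a peak on days 1 and 9. The adjoining region from 23433 to 23721 bp had peaks of 214, 205 and 200 bp on days 1, 2 and 3. Neither had a peak on day 0 or in ESCs. The smallest width in any list is 200 bp, so these calls were close to the narrowest possible. A region over the pseudogene Gm10169 had a peak on day 0 (200 bp) and in ESCs (210 bp), and a peak of 200 bp beyond the gene, at 50490 to 50689 bp, was called in ESCs alone.

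*Zfp819* (ENSMUSG00000055102.15, chr7:43607169-43618285) also had an open start in all 7 libraries, and nothing else in its locus but the site. The covered length at the start was 476, 408, 407, 597, 524, 513 and 270 bp, with a pair of peaks on day 2. On day 0 the peak ran from -244 to 231 bp and in ESCs from 38 to 307 bp, so the stretch before the start was not called in ESCs. The ESC peak of the site followed at 684 to 905 bp, in an intron. Within the gene's first 1000 bp, ESCs thus had a pair of short peaks where the fibroblast-derived libraries had called peaks at the start only.

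The ratio of ESC to day 0 covered length at the start was 0.57 for *Zfp819* and 0.79 for *Zfp568*. Over the 7450 regions open in all 7 libraries within 1 kb of a protein-coding start, the median ratio was 0.78, with quartiles of 0.59 and 0.91. *Zfp568* was therefore near the middle of such starts and *Zfp819* just under the lower quartile. A start open in all 7 libraries was found for 2 of the 5 members, *Zfp568* and *Zfp819*, against 38.5% of protein-coding genes. The ESC part of that state was given for each member by the selection. For these 2 genes, "open in ESCs alone" describes the site and not the gene. No member had a start open on day 0 alone (0 of 5, against 1.89%) or a start with no peak (0 of 5, against 39.8%). Neither state was possible, because the ESC peak that selected each member reaches within 1000 bp of its start. Both counts were thus fixed by the selection and say nothing about the members.

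The bases before these starts are shown because each open start lies beside a site that was open in ESCs alone. Capitals mark the E-box CACGTG, which matched at -184 and -37 bp of *Zfp819*. Over the 200 bp before the starts of 21938 protein-coding genes, CACGTG was found at least once in 5.65% and 2 or more times in 0.456%. Of the strings searched, only this one, which had matched, was given such a share. The genes counted are not all alike to these 2, as 39.8% had a start with no peak in any library.
Zfp568 start, chr7:29983755-29983954, 200 bases: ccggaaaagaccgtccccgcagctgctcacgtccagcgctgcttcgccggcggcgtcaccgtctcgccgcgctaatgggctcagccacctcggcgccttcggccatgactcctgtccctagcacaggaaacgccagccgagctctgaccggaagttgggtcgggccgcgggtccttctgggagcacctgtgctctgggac
Zfp819 start, chr7:43606969-43607168, 200 bases: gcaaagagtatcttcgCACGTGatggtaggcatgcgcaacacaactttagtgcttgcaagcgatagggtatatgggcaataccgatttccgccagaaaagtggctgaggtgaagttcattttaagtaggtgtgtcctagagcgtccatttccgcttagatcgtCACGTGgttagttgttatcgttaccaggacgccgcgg

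The gene clusters around both KRAB zinc-finger genes were open at most starts. Of 14 other Zfp genes within 500 kb of *Zfp568*, 14 were open at the start on day 0 and 12 in ESCs. In all 7 libraries 10 were open, against 38.5% of protein-coding genes. *Zfp260* and *Zfp383* lacked the ESC peak. Of 4 other Zfp genes within 500 kb of *Zfp819*, 3 (*Zfp658*, *Zfp715* and *Zfp719*) were open in all 7 libraries and *Zfp936* in none. No Zfp gene of either cluster was open at the start in ESCs without a day 0 peak. The shares of protein-coding genes with a start open on day 0, in ESCs, or in ESCs without day 0 were not counted.

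*Zscan10* (ENSMUSG00000023902.18, chr17:23600856-23611019) had a called peak within 1000 bp of its start in ESCs alone, unlike the KRAB zinc-finger genes. Its ESC peak, at chr17:23601367-23601604, ran from 511 to 748 bp past the start, in an intron. That is the peak that selected the gene, and the site, from -198 to 774 bp, takes up part of the window. The pattern was thus fixed in part by the selection. It also depends on the window, as a region open in all 7 libraries ends at -1248 bp. The locus around it was nevertheless open from day 0, with 5, 4, 4, 4, 5, 4 and 4 peaks outside the site. The median protein-coding gene had 3 peaks on day 0, 2 on each of the doxycycline days and 1 in ESCs.

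Most of these peaks belonged to neighbours of *Zscan10*. At the start of *Zfp13*, a zinc-finger gene on the opposite strand, a region from -2095 to -1248 bp was open in all 7 libraries and covered 824, 693, 576, 667, 712, 803 and 573 bp. A *Zfp13* intron, from -8432 to -7776 bp, and an exon of *Mmp25*, a matrix metalloproteinase gene, from 29224 to 29851 bp, were open in all 7 libraries as well. Another exon of *Zfp13*, from -15040 to -14314 bp, was open on days 0, 6 and 9. A region open in all 7 libraries was found in 4 of the 5 loci, those other than *Fzd10*, against 57.2% of protein-coding genes.

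One region of the *Zscan10* locus had no day 0 peak and was called on days 3 and 6 and also in ESCs, which are a separate line and not a later day. It lies near the 3′ end of *Zscan10*, from 9604 to 10116 bp, over exon bases, coding and UTR. It covered 0, 0, 0, 408, 200, 0 and 230 bp. The gap on day 9 stands in a library with 33007 peaks, against 48087 on day 3, and the part of peak number in that gap was not tested.

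Among 19 genes named Zscan, 8 were open at the start in all 7 libraries, against 38.5% of protein-coding genes, and *Zscan26* in all but ESCs. *Zscan10* was the 1 gene of the family open in ESCs alone, by the same peak that selected it. The remaining 9 genes, the 8 *Zscan4* copies and *Zscan5b*, had no peak at the start in any library, against 39.8% of protein-coding genes. *Zscan4* copies are nearly identical, so that reads from them may not map to 1 place and their state is uncertain.

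*Tcea3* (ENSMUSG00000001604.14, chr4:136247729-136274898) had the most changing locus of the 5. Outside the site it held 8, 3, 5, 5, 4, 6 and 2 peaks. The number was highest on day 0 and lowest in ESCs. The ESC peak of the site, at chr4:136246496-136247002, ran from -1233 to -727 bp, where no gene is annotated.

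At the start of *Tcea3* itself, from 105 to 304 bp over an exon with UTR, a peak of 200 bp was called on day 0 alone. A region open on day 0 alone was found for 1 of the 5 loci, *Tcea3*, against 48.6% of protein-coding genes. In an intron, from 1934 to 2524 bp, a region covered 591 bp on day 0 and 200 bp on each of days 1 and 6, and no other library had a peak there. Within the gene, a region from 12523 to 13355 bp in an intron was open in each of the MEF-derived libraries and not in ESCs. It covered 576, 512, 262, 623, 582, 438 and 0 bp. At the body of *Tcea3*, ESCs therefore had no called peak, although day 0 fibroblasts had several.

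Past the end of *Tcea3*, a region from 31049 to 31665 bp opened during reprogramming and was not called in ESCs. It covered 0, 0, 471, 589, 544, 425 and 0 bp. No gene is annotated there. Farther on, the start of *Zfp46* was open in all 7 libraries, with 1188 bp on day 0 and 1016 bp in ESCs.

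Upstream, the *Tcea3* locus reaches into *Asap3*, which encodes an Arf GTPase-activating protein. Its peaks there were between 200 and 292 bp wide. They included 2 regions open on day 0 and on some of days 1 to 9, 1 open on day 0 alone, 1 open on day 9 alone and 1 open in ESCs alone, the last from -11502 to -11303 bp. With the *Zfp568* peak beyond the gene, a region open in ESCs alone outside the site was found in 2 of the 5 loci, against 29.0% of protein-coding genes. Of the TFIIS genes, *Tcea1* was open at the start in all 7 libraries, and *Tcea2* on days 0, 3, 6 and 9. *Tcea3* was open at its start on day 0, by the peak within the gene, and in ESCs, by the peak of the site.

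**Figure D2:**
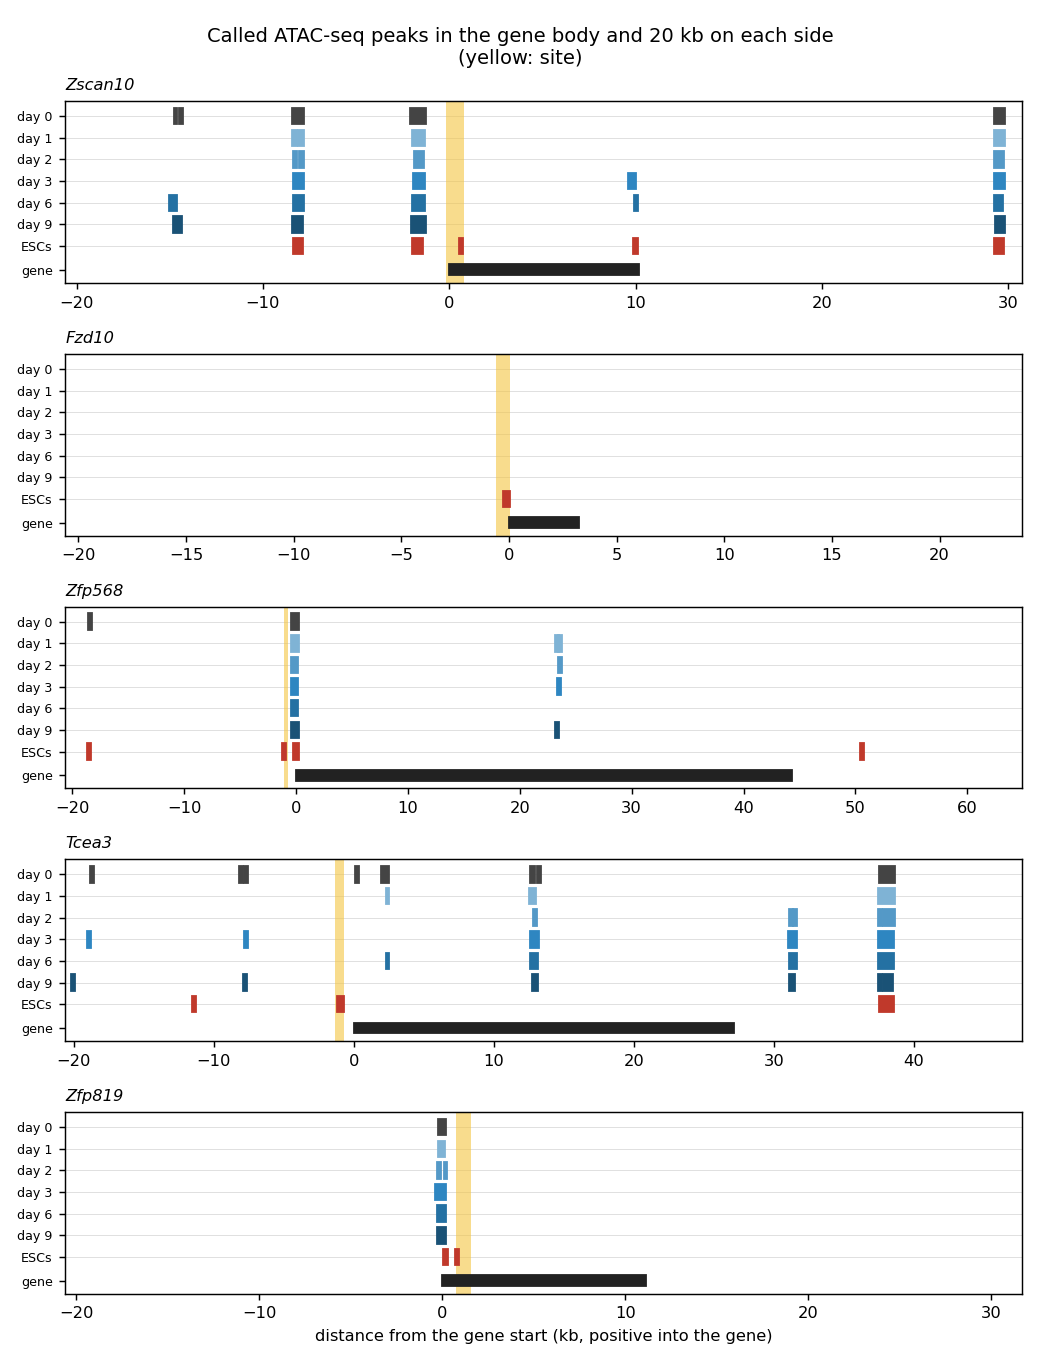
Called peaks of the 7 libraries over each locus, against the distance from the gene start in kb, with the site in yellow and the gene body in black; short peaks are widened to stay visible. *Fzd10* shows a single peak, *Zfp568* and *Zfp819* a start open in all 7 libraries, *Zscan10* open neighbours, and *Tcea3* several peaks on day 0 that are not called in ESCs.

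Over all 5 loci, the 7 lists merged into 21 regions outside the sites. Of these, 6 were open in all 7 libraries, 5 on day 0 and some of days 1 to 9 without ESCs, 2 on day 0 alone, 2 in ESCs alone and 1 on day 0 and in ESCs. The other 5 were earlier-opening, that is, called on 1 or more of the doxycycline days but not on day 0. They lay in 3 of the 5 loci, *Zscan10*, *Zfp568* and *Tcea3*, against 61.8% of protein-coding genes with such a region. The 2 in *Zfp568* adjoin without touching and so count apart. With peaks within 300 bp merged, the number of loci was still 3. Only the region in *Zscan10* was also open in ESCs, which makes 1 of 5 loci against 13.8% of protein-coding genes. Both shares were near those of protein-coding genes at large, so nothing about the members can be read from them.

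The other RIE genes and genes with an ESC-only region near the start give further reference points. Of the 60 other RIE genes, treated in the same way, 47 (78.3%) had an earlier-opening region outside the site and 16 (26.7%) had one that was also open in ESCs. Of the 742 protein-coding genes with an ESC-only region within 2.5 kb of the start (3.38% of all), 69.7% had an earlier-opening region and 17.5% one that was also open in ESCs. Among these 742 genes, 17.5% had a start open in all 7 libraries and 40.8% a start open in ESCs alone, while each state was found for 2 of the 5 members. The 2 sets are not alike in this, because the selecting peak gave each member an ESC call within 1000 bp of its start. Of the 742 genes, 15.6% had a start with no peak in any library. These differences were not tested, and nothing about the members can be read from the start states. Member genes had a median length of 11117 bp, against 17425 bp for protein-coding genes, and a longer locus has more room for peaks.

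**Figure D3:**
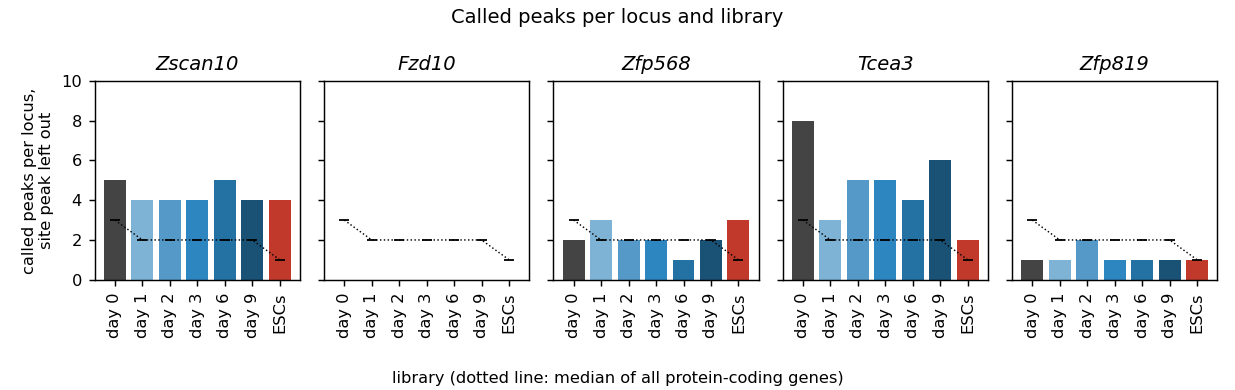
Number of called peaks per locus outside the site (bars, 1 library each) with the median of all protein-coding genes (dotted line). *Tcea3* goes from 8 peaks on day 0 to 2 in ESCs, *Zscan10* holds 4 or 5 in each library, and *Fzd10* holds 0 in all.

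By number of peaks outside the site in the 7 libraries, each member was compared with the other RIE genes, taking the sum of the absolute differences. *Fzd10* was most like *Cnpy1* (sum 1), *Gsx1* (2) and *Ypel1* (2), which also had nearly empty loci. *Zfp819* was most like *F2* (2), *Mapk4* (2) and *Insm1* (3), and *Zfp568* most like *Pou5f1* (3), *Etv2* (4) and *Prss8* (4). *Tcea3* was closest to *Ankrd6* (6), *Ppargc1b* (7) and *Uhrf1bp1* (9), of which *Ankrd6* had 8 peaks on day 0 and 2 in ESCs. *Zscan10* was equally close to *Dennd2c*, *Pga5* and *Uhrf1bp1* (6 each).

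The other 2 sites open in ESCs alone belong to *Pou5f1* and *Izumo2*, a gene of the sperm-egg fusion family. From its ATAC-seq tracks, which also mark significant peaks, the study described its *Pou5f1* element as accessible after day 3. That element was taken from the same list but is shorter than the listed site of 594 bp. Here the *Pou5f1* site overlapped no called peak of a MEF-derived library, and a missing call is not the same as missing signal. At *Pou5f1*, the locus outside the site held 2, 1, 1, 2, 1, 2 and 3 peaks, and the start was open on days 0 and 9. The MEF-derived cells also carry *Pou5f1* on the transgene, and whether its reads entered these calls was not tested. At *Izumo2* the locus outside the site held 1, 1, 1, 1, 1, 2 and 0 peaks, and the start was open in ESCs alone.

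**Figure D4:**
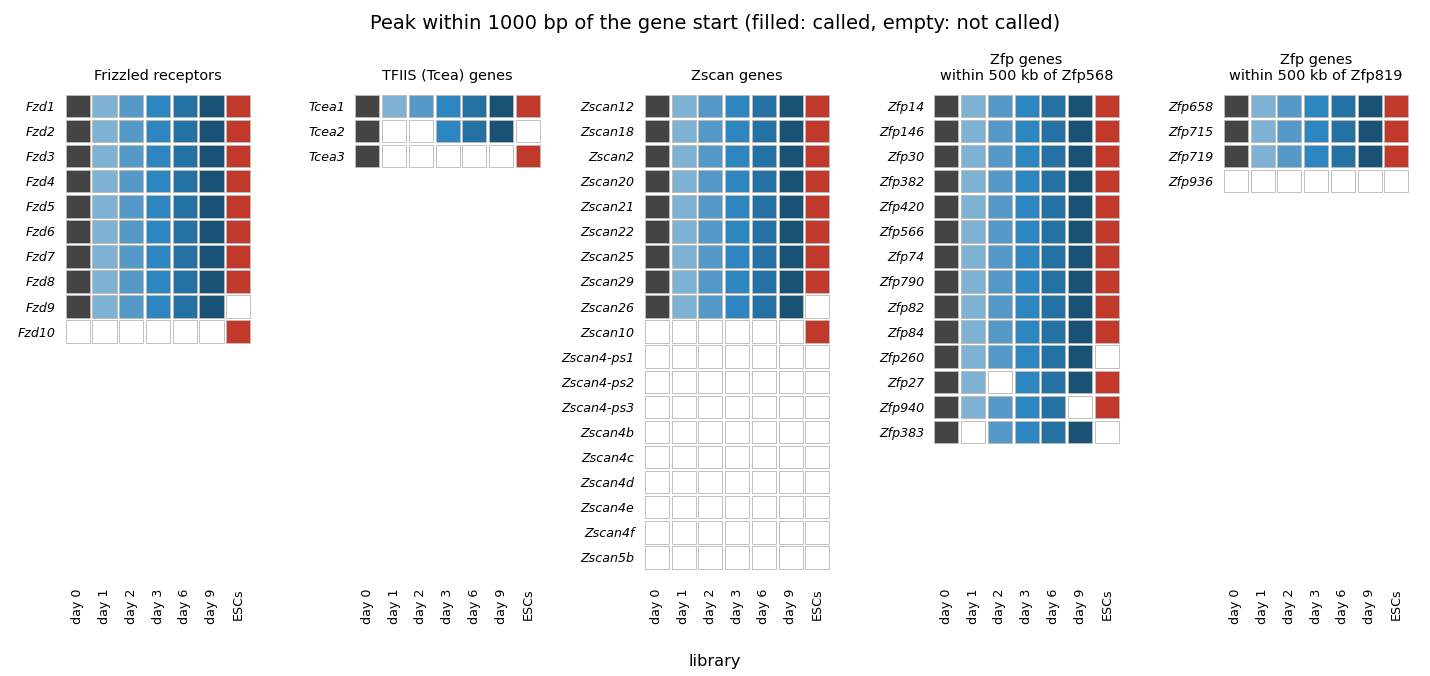
Open gene starts by library for the Frizzled receptors, the TFIIS genes, the genes named Zscan and the Zfp genes near *Zfp568* and *Zfp819*; a filled cell is a called peak within 1000 bp of the gene start. *Fzd10* and *Zscan10* stand out as filled in ESCs alone, and *Tcea3* as filled on day 0 and in ESCs. The ESC cell of each is the peak that selected the gene.

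Of the 5 ESC peaks, 4 had a lower CpG ratio than the median ESC peak. CpG observed over expected, the frequency of CG pairs relative to that given by the C and G content, was 0.14 for *Zscan10*, 0.15 for *Zfp819*, 0.34 for *Zfp568*, 0.41 for *Tcea3* and 0.58 for *Fzd10*. The median was 0.51 over the 27023 ESC peaks on assembled chromosomes, 0.29 over the 10159 ESC-only peaks and 0.49 over the 737 ESC-only peaks within 2.5 kb of a protein-coding start. *Fzd10* was thus the 1 member above the median of all ESC peaks, while *Zfp568* and *Tcea3* were above that of ESC-only peaks. *Fzd10* also had the highest GC content, 66.3%, against 49.6% for *Zscan10* and a median of 57.1%. The regions open in all 7 libraries at the starts of *Zfp568* and *Zfp819* both had a CpG ratio of 0.80, higher than that of the site beside them. These regions were merged from 7 libraries, while the sites are single ESC peaks. No median for start regions open in all 7 libraries was computed. Repeat-masked bases made up 39.4% of the *Zfp568* peak and 0.0% of the *Zscan10* peak, against a median of 9.09%.

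**Figure D5:**
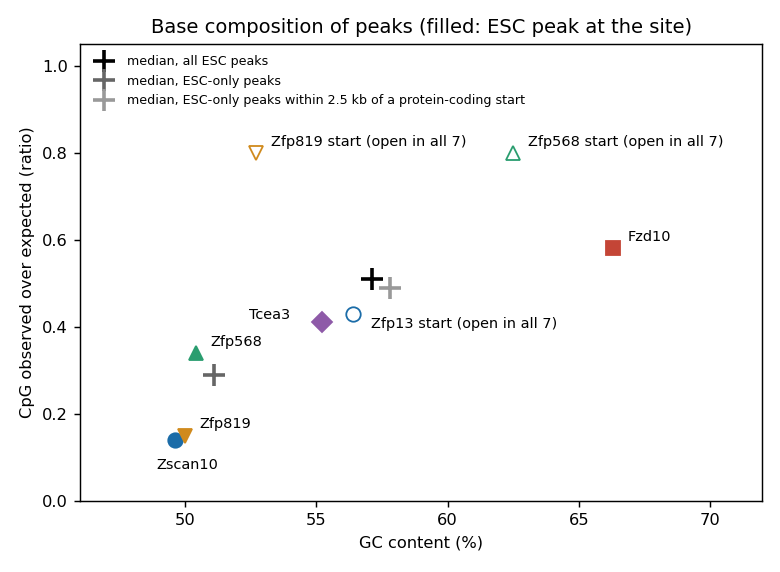
GC content and CpG observed over expected for the 5 ESC peaks at the sites (filled), for the start regions open in all 7 libraries (open symbols) and as medians of ESC peaks (crosses). The sites of *Zscan10* and *Zfp819* lie lowest, at 0.14 and 0.15, and the open starts of *Zfp568* and *Zfp819* highest, at 0.80.

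Matches to short strings bound by pluripotency and other factors were searched on both strands. The KLF string GGGNGTGG matched 3 of the 5 peaks, 1 time each in *Zscan10*, *Fzd10* and *Tcea3*, and was found in 23.6% of all ESC peaks and 20.0% of 300 bp windows about their middle. The octamer ATGCAAAT, bound by Oct4, matched the *Tcea3* peak at -1183 bp and 3.37% of ESC peaks. The strings CATTGT (SOX), the OCT-SOX composite, CACGTG (E-box), TCAAGGTCA (ESRRB) and TGANTCA (AP-1) had 0 matches in the 5 peaks, and were found in 15.2%, 0.126%, 8.62%, 1.11% and 9.33% of ESC peaks. The composite string contains most of the octamer, so their matches are not independent. A match is a string of letters and not a measured binding site.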

How the data were processed

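ATAC-seq peak lists of 7 mouse libraries, 1 per time-point, were analysed. The authors trimmed reads with Trimmomatic, aligned with Bowtie2 against mm10, used SAMtools and Picard for duplicate removal, downsampled all samples to 1 depth, whose value the methods do not state, and called peaks per library with MACS2 at a fixed q-value limit. Versions are not given in the sources used here. The deposited lists give chromosome, start and end, and no score, signal or depth. Overlap was counted from 1 bp, regions were merged from touching or overlapping peaks of the 7 libraries, and GENCODE M21 genes and the GRCm38.p6 sequence were used. Sites are those of the study's RIE list, from which coordinates and gene names were taken. A gene start is the 5′ end of the gene record. Positions count from 1, and distances from the gene start count its first base as 0. Python 3.11.15, numpy 2.4.6, pysam 0.24.0 and matplotlib 3.10.9 were used. The overlap code equalled BEDTools 2.31.1 on 6 pairs of lists and found 100% of planted overlaps in 2000 simulated peaks. The members, lists and strings were chosen with earlier results of these data known. Named genes are the members, genes whose start lies within 1000 bp of a locus peak, the related genes and the 3 most alike RIE genes each. Other genes named, such as *Celsr1*, *Asap3*, *Mmp25*, *Zscan26*, *Zscan5b*, *Zfp260*, *Zfp383*, *Zfp74* and *Hnrnpr*, were chosen after their values were seen. With 1 library per time-point, 0 p-values were computed. Alternatives changed the overlap, the peaks, the flank, the merging, the libraries and the genes used.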

Additional observations from a re-analysis of the deposited data

How the results depend on the processing

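Of 43 values under an alternative, 41 stayed within a ratio of 1.5 of the reported value and 2 did not. For counts out of 5 loci this limit is wide, as a change from 3 to 2 stays within it. The numbers of members still open in ESCs alone, given below, are not among the 43. With at least 50% of the site covered, 4 instead of 7 sites were open in ESCs alone, of which *Fzd10* and *Tcea3* were members. The ESC peaks of the other 3 members cover between 16.9% and 37.3% of the site and so could not pass. With a flank of 50 kb, 5 instead of 3 member loci had an earlier-opening region, since a wider locus can only add regions, against 77.8% of protein-coding genes. The calls at the sites of the members also depended on peak width and on distance. With peaks at least 300 bp wide, 2 members, *Fzd10* and *Tcea3*, were still open in ESCs alone. The ESC peaks of the other 3 members are narrower than 300 bp and so could not pass. With a peak within 500 bp counted as overlap 3 were, *Zscan10*, *Fzd10* and *Tcea3*. With the 27074 widest peaks of each library, all 5 were. That number is the whole ESC list, so the setting only removes peaks of other libraries and no member could be lost. The number of member loci with an earlier-opening region was 2 for the gene body alone, for peaks at least 300 bp wide and for the widest peaks, and 3 without days 2 and 9. Any transcript start in place of the gene start, an alternative chosen after seeing the data, left the counts of starts open in all 7 libraries the same. No paired analysis was possible because a single library stands for each group.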

Other observations

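Between 20 and 50 kb from the gene bodies, the loci held 5 regions at *Zscan10*, 2 at *Fzd10*, 4 at *Zfp568*, 8 at *Tcea3* and 5 at *Zfp819*. At *Fzd10*, 1 of the 2 was a day 9 peak of 394 bp, at chr5:128579282-128579675, over an exon of 5930412G12Rik. It was the peak of the MEF-derived libraries closest to the gene, and ESCs had none there. The other was a day 0 peak of 202 bp, from -42683 to -42482 bp. A region of 728 bp in an intron of *Zfp74*, from -39911 to -39184 bp of *Zfp568*, was open from day 1 through ESCs and not on day 0. A region of 673 bp in an intron of *Hnrnpr*, from 69903 to 70575 bp of *Tcea3*, had the same pattern. Neither gene was a member, and no link to *Zfp568* or *Tcea3* was measured. At *Zfp819*, a peak of 295 bp from 55800 to 56094 bp was called on day 3 alone.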
